A study of Arabidopsis thaliana with 6 samples.

Results

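The genes encoded in the mitochondrial genome of Arabidopsis thaliana were taken as all rows of the expression table whose locus identifier begins with ATMG. By this rule 78 of 21430 probe sets were members, and all 78 were kept without a filter on low values. The samples were wild-type Columbia-0 seedlings grown in liquid half-strength Murashige and Skoog medium with sucrose in multiwell plates. In the H2O2 group (n = 3 arrays) hydrogen peroxide was added to 10 mM when the seedlings were 7 days old, and material was collected after 24 h. In the mock group (n = 3 arrays) seedlings of the same accession and age received the same volume of water for 24 h. Each replicate was a pool of 4 to 5 plants, and the labels give the tissue as leaf but the source as seedling. The labels do not state if the pools were grown apart, and the p-values therefore cover pool-to-pool spread, which may be technical. The values are log2 GCRMA values as deposited, and every change below is H2O2 minus mock on that scale, with the standard error (SE) of limma's fit. The number of arrays limits the precision.

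Plant mitochondria keep a small genome that encodes some of the subunits of the respiratory chain. These belong to complex I, which takes electrons from NADH, complex III and complex IV, which pass them on to oxygen, and the ATP synthase, which uses the resulting proton gradient. The genome also encodes proteins for cytochrome c maturation, proteins of the mitochondrial ribosome, a maturase for intron splicing, a transport protein and many open reading frames of unassigned function. The remaining subunits of each complex, and all factors that copy, transcribe, edit and degrade mitochondrial RNA, come from nuclear genes. Plant mitochondrial messenger RNAs mostly lack long poly(A) tails, and a tail there marks RNA for decay. The labels name a standard Affymetrix labelling from 5 µg total RNA without naming the primer, so the values describe the RNA that this labelling reached. In such bulk samples fewer mitochondria and less RNA in each mitochondrion cannot be told apart.

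The members were grouped in functional lists written from general knowledge of these loci. The gene table used for names pairs none of the 78 identifiers with a symbol (0 matched), so the loci are called by identifier and their list could not be checked against it. Of 38 listed mitochondrial loci 22 were in the table, and the other 56 members are open reading frames of no list.

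The tissue label was compared with marker genes. CA1, a leaf carbonic anhydrase and the only leaf marker of 3 listed that was in the table, had 10.34, 10.34 and 9.98 in H2O2 seedlings, against 10.45, 10.17 and 10.32 in mock seedlings. All 4 listed root markers had values above 6 on every array, among them PYK10, a root beta-glucosidase, with 11.99, 11.85 and 12.05 in H2O2 seedlings and 12.07, 12.00 and 11.98 in mock seedlings. This goes against a label of leaf alone. Their mean log2 value per array was 8.14 to 8.52 in H2O2 seedlings and 9.35 to 9.39 in mock seedlings, and 2 of the 4 were lower by the test (XTH14 by -1.76 and PRP3 by -2.08). The part of this shift in the results below was not tested.

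Most mitochondrial loci gave low values. The mean over the 6 arrays ran from 2.13 to 9.08 with a median of 3.29, whereas the median over all probe sets was 5.72, and 10 members lay above the latter. A low level was set at the 30th percentile of all probe set means, 3.79. The mean of 46 of the 78 members lay under it, and 43 members were under it on all 6 arrays.

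The loci of the respiratory chain and ATP synthase were higher after H2O2. Of 10 such loci in the table, 8 were higher by the test (limma, Benjamini-Hochberg adjusted p under the threshold of 0.05), 0 were lower and 2 did not pass, and the median change was 1.12. All 10 had means at or above the low level. Of all probe sets at or above it 58.2% were called (23.1% higher and 35.1% lower). Over all 78 members 12 were higher, 9 were lower and 57 did not pass, a call for 26.9% of members. Over all probe sets the share called was 45.0%, with 18.2% higher and 26.7% lower. The median change of the 78 members was 0.02, beside -0.04 over all probe sets. At least 2-fold increases were found for 7 members, of which 6 belong to the respiratory and ATP synthase lists, and at least 2-fold decreases for 0. The other member, ATMG00040, has the same values as the ATP synthase locus ATMG01080 and is not a separate measurement. Over all probe sets 5.60% were at least 2-fold higher and 3.01% at least 2-fold lower. The H2O2 and mock arrays did not overlap for 26 members, and this held for 54.0% of all probe sets. When arrays were centred on 8 reference genes instead, 23 members were higher and 2 lower. That centring moved the median change of all probe sets to 0.14, and the median of the members to 0.19.

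**Figure D1:**
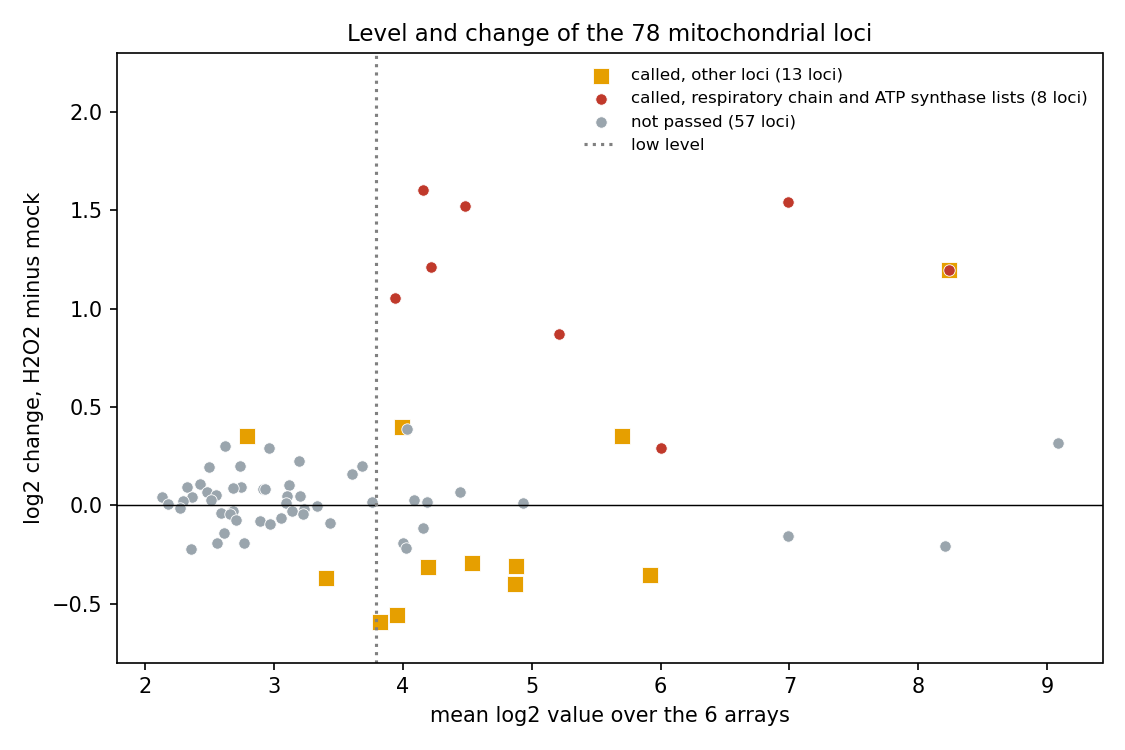
Each point is 1 of the 78 mitochondrial loci, with its mean log2 value over the 6 arrays on the x axis and its log2 change (H2O2 minus mock) on the y axis. Red points are called loci of the respiratory chain and ATP synthase lists, orange squares are other called loci, grey points did not pass, and the dotted line marks the low level of 3.79. The 8 red points all lie to the right of the line and above 0, and 1 of them lies inside an orange square because ATMG01080 and ATMG00040 have identical values.

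Of the 46 loci under the low level, 1 was higher and 1 lower, or 4.35%, and 14.1% of all probe sets under that level were called (6.86% higher and 7.28% lower). These counts depend on the fit, with 10 higher and 0 lower under reference gene centring and 3 higher and 1 lower in the fit paired by replicate number. Of the 32 members at or above the low level, 11 were higher and 8 lower, or 59.4%. Among all probe sets at or above it 58.2% were called (23.1% higher and 35.1% lower). The level is set on the mean over both groups, which a change itself moves, so shares on either side of it are description only. Of the 12 members called higher, 6 had a mock mean under the low level, and for 1 of these the H2O2 mean was under it as well.

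Many of these values cannot be assigned to the mitochondrial genome alone. The Arabidopsis nuclear genome carries a large insertion of mitochondrial DNA on chromosome 2, and its loci in the table are among those with the prefix AT2G07. The values of 49 members were identical on all 6 arrays to those of such a nuclear locus, and 51 were identical to a nuclear locus or another member, so that the 78 members hold 74 distinct sets of values. The 12 members called higher hold 11 distinct sets of values and the 9 called lower hold 8. Of the called members, 10 of the 12 higher and 7 of the 9 lower share their values with a nuclear locus. Of the 29 members that do not, 2 were higher (ATMG00650 and ATMG01200) and 2 lower (ATMG01020 and ATMG01180), and 22 lay under the low level. Conversely, 46 of the 101 AT2G07 loci were identical to a member. The prefix was taken whole, and how many of the 101 lie inside the insertion was not determined.

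Complex I, the entry point for electrons from NADH, was represented by 5 of 14 listed loci, of which 3 were higher and 2 did not pass. ATMG00270 had 4.66, 4.96 and 5.24 in H2O2 seedlings, against 3.28, 3.56 and 3.21 in mock seedlings. Every H2O2 array lay above every mock array. The change was 1.60 (SE 0.15), or 3.04-fold, with a limma adjusted p of 3.51e-05, and the values are also those of AT2G07731. ATMG00513 had 4.76, 4.70 and 5.01 in H2O2 seedlings and 3.60, 3.59 and 3.64 in mock seedlings. The groups did not overlap, and the change was 1.21 (SE 0.10), or 2.32-fold (limma adjusted p = 1.11e-05, values shared with AT2G07711). ATMG00650, which shares its values with no other locus, had 4.33, 4.51 and 4.55 in H2O2 seedlings, against 3.17, 3.54 and 3.52 in mock seedlings. Its groups were also separate, with a change of 1.05 (SE 0.12), or 2.07-fold (limma adjusted p = 9.78e-05). All 3 of these loci had mock means under the low level. With values under 3.74 raised to that value their changes were 1.21 for ATMG00270, 1.08 for ATMG00513 and 0.72 for ATMG00650, and all still passed.

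The other complex I loci gave no call. ATMG00580 had 8.996, 9.45 and 9.27 in H2O2 seedlings and 9.11, 8.99 and 8.67 in mock seedlings. The groups overlapped, since the lowest H2O2 array lay under the highest mock array, and the change was 0.32 (SE 0.14, limma adjusted p = 0.105). ATMG00990, with the values of AT2G07751, had 4.54, 4.44 and 4.46 in H2O2 seedlings and 4.36, 4.26 and 4.62 in mock seedlings. These values also overlapped, and the change of 0.07 (SE 0.10) was within the spread between arrays (limma adjusted p = 0.651).

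Complexes III and IV, which carry electrons from ubiquinol to oxygen, had 1 locus each in the table, and both were higher. The complex III locus ATMG00220 had 5.39, 5.69 and 5.86 in H2O2 seedlings, against 4.84, 4.89 and 4.59 in mock seedlings. The groups were separate and the change was 0.87 (SE 0.13), or 1.83-fold (limma adjusted p = 0.000596, values shared with AT2G07727). The complex IV locus ATMG00730, 1 of 3 listed, had 5.19, 5.23 and 5.31 in H2O2 seedlings and 3.48, 3.88 and 3.79 in mock seedlings. Here too every H2O2 array was above every mock array, with a change of 1.52 (SE 0.11), or 2.87-fold (limma adjusted p = 6.34e-06, values shared with AT2G07687).

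All 3 loci of the ATP synthase list in the table were higher, of 6 listed. ATMG01190 had 7.69, 7.66 and 7.93 in H2O2 seedlings, against 6.24, 6.15 and 6.26 in mock seedlings. The arrays of each group lay close together and the groups were far apart, with a change of 1.54 (SE 0.09), or 2.91-fold (limma adjusted p = 1.94e-06, values shared with AT2G07698). ATMG01080 had 8.78, 8.76 and 8.98 in H2O2 seedlings and 7.40, 7.80 and 7.73 in mock seedlings. The change was 1.20 (SE 0.12), or 2.29-fold (limma adjusted p = 4.47e-05), and the same values stand for ATMG00040, an open reading frame of no list, and for AT2G07671. Both of these ATP synthase loci were above the low level on all arrays, so their folds do not rest on low values. ATMG00480 had 6.08, 6.22 and 6.17 in H2O2 seedlings and 5.75, 5.92 and 5.91 in mock seedlings. The groups were separate but close, and the change was 0.29 (SE 0.08), or 1.23-fold (limma adjusted p = 0.0191, values shared with AT2G07707). This call was lost without mock replicate 1 (0.24, adjusted p = 0.0735) and without H2O2 replicate 2 (0.26, adjusted p = 0.0578).

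**Figure D2:**
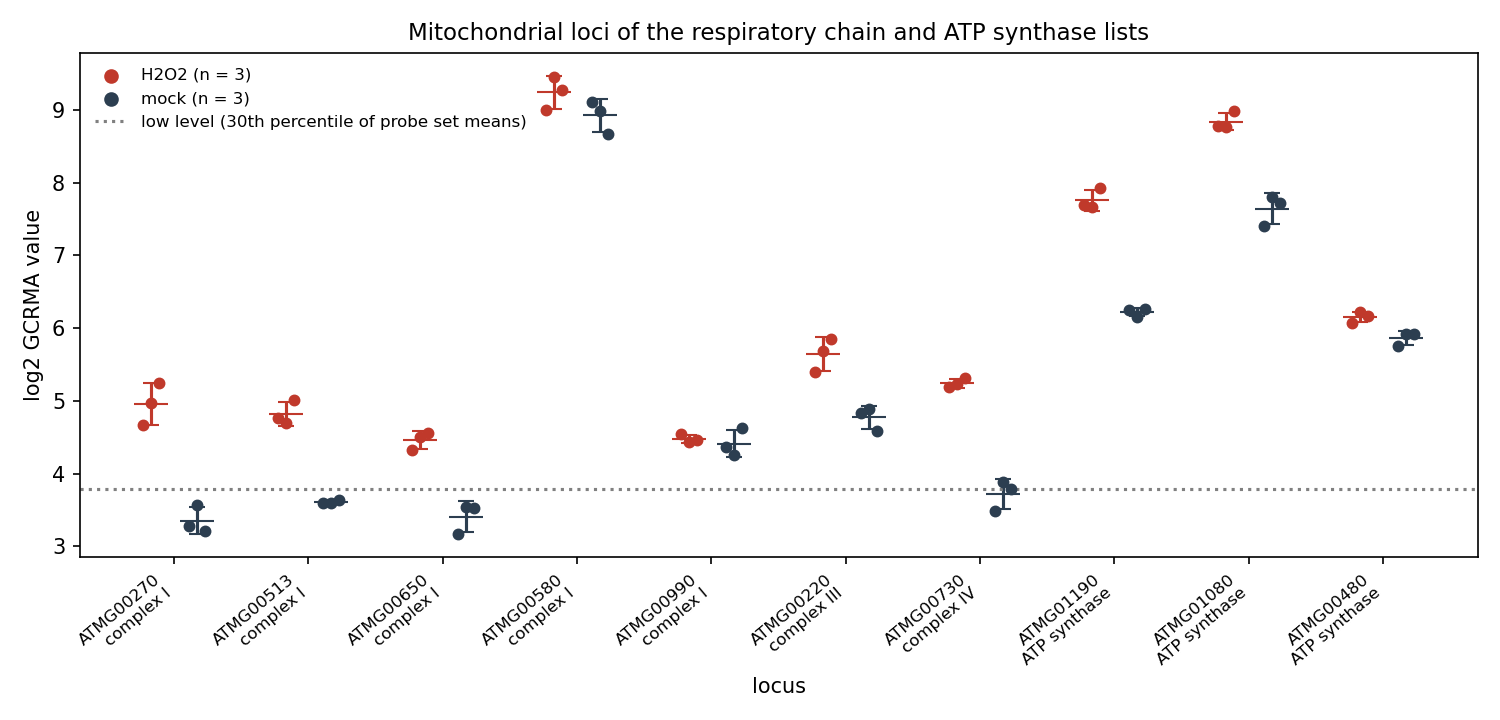
Log2 GCRMA values of the 10 mitochondrial loci of the respiratory chain and ATP synthase lists, with H2O2 arrays (red, n = 3) left of mock arrays (dark blue, n = 3). Points are arrays, long bars are means and whiskers are SD. The dotted line is the low level of 3.79. The groups are separate for 8 loci and overlap for ATMG00580 and ATMG00990.

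The shift in the respiratory and ATP synthase lists was present on every H2O2 array. The median deviation of the 10 loci from the mock mean was 1.03, 1.09 and 1.24 on the H2O2 arrays, against -0.06, 0.09 and 0.05 on the mock arrays. Under reference gene centring 9 of the 10 were higher with a median of 1.30, and under quantile normalization 8 were higher with a median of 1.08.

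The other functional lists had a small median change. Of their 12 loci in the table, 2 were higher, 1 was lower and 9 did not pass, with a median change of 0.03. The share called was 25.0%, beside 45.0% of all probe sets. Means under the low level were found for 4 of the 12, and 14.1% of all probe sets under that level were called. With reference gene centring 4 of the 12 loci were higher and 0 lower, with a median of 0.20. For cytochrome c maturation, which attaches heme to cytochromes, 3 of 5 listed loci were in the table. ATMG00180 of this list had 5.69, 5.93 and 6.003 in H2O2 seedlings, against 5.57, 5.49 and 5.51 in mock seedlings. The H2O2 arrays were all above the mock arrays, with a change of 0.35 (SE 0.10), or 1.28-fold (limma adjusted p = 0.0144, values shared with AT2G07723). It no longer passed without mock replicate 2 (adjusted p = 0.0515) or without variance moderation (adjusted p = 0.0581). ATMG00830, with the values of AT2G07783, had 8.15, 7.99 and 8.17 in H2O2 seedlings and 8.29, 8.41 and 8.23 in mock seedlings. Its H2O2 arrays were all below its mock arrays, but the change of -0.21 (SE 0.09) did not pass (limma adjusted p = 0.0869). ATMG00960 changed by 0.20 and did not pass (limma adjusted p = 0.116).

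All 7 listed loci for ribosomal proteins were in the table, with 1 higher, 1 lower and 5 not passed. ATMG00290 had 4.01, 4.34 and 4.21 in H2O2 seedlings, against 3.88, 3.69 and 3.80 in mock seedlings. The groups did not overlap, and the change was 0.40 (SE 0.10), or 1.32-fold (limma adjusted p = 0.0112, values shared with AT2G07734), with the call lost without variance moderation (adjusted p = 0.0596). ATMG01270 had 3.21, 3.33 and 3.11 in H2O2 seedlings and 3.67, 3.58 and 3.52 in mock seedlings. All 6 values lay under the low level, and the change was -0.37 (limma adjusted p = 0.00695, values shared with AT2G07696). Centred on the reference genes it was -0.20 and did not pass (adjusted p = 0.0881), and with low values raised it was 0. Among the other ribosomal loci, ATMG00210 differed by 0.39 with a limma adjusted p of 0.0758 and passed in the paired fit by replicate number (adjusted p = 0.011). ATMG00080 and ATMG00090, which have identical values, differed by -0.16, and ATMG00560 and ATMG00980 by 0.02 and 0.05.

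Neither locus of the maturase and transport list passed. ATMG00520 had 2.96, 2.78 and 3.13 in H2O2 seedlings, against 2.96, 2.89 and 2.77 in mock seedlings. The groups overlapped under the low level, and the difference was 0.08 (limma adjusted p = 0.568). For ATMG00570 it was 0.01 (limma adjusted p = 0.931).

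Among the 56 open reading frames of no list 2 were higher, 8 were lower and 46 did not pass, with a median change of -0.01, and 42 of them lay under the low level. The share called was 17.9%, beside 45.0% of all probe sets. Of all probe sets under the low level 14.1% were called, and 58.2% of those at or above it. The part of low signal in the smaller share was not tested. Under reference gene centring the balance turned to 10 higher and 2 lower, with a median of 0.16. ATMG00040, with the values given for ATMG01080, was the only one of the 56 to be at least 2-fold higher. ATMG01200 had 2.88, 3.06 and 2.95 in H2O2 seedlings, against 2.64, 2.60 and 2.60 in mock seedlings. The H2O2 arrays were all above the mock arrays, with a change of 0.35 (SE 0.08, limma adjusted p = 0.00595), but both groups were under the low level and the change was 0 with low values raised.

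The decreases were all smaller than 2-fold. ATMG01040 had 3.71, 3.51 and 3.36 in H2O2 seedlings, against 4.07, 3.92 and 4.37 in mock seedlings. The groups were separate, with a change of -0.59 (SE 0.13), or 1.51-fold lower (limma adjusted p = 0.00546, values shared with AT2G07664). With low values raised it was -0.38 and did not pass (adjusted p = 0.0852), nor did it without variance moderation (adjusted p = 0.0612). ATMG01090 had 3.53, 3.65 and 3.84 in H2O2 seedlings and 4.04, 4.38 and 4.27 in mock seedlings. Every H2O2 array was below every mock array, and the change of -0.56 (SE 0.11), or 1.47-fold lower (limma adjusted p = 0.0033, values shared with AT2G07777), passed under every alternative in which it was tested. These were the 2 members that remained lower under reference gene centring.

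ATMG01280 had 4.78, 4.60 and 4.63 in H2O2 seedlings, against 5.13, 5.10 and 4.97 in mock seedlings. All H2O2 arrays were lower, by -0.40 on average (SE 0.09, limma adjusted p = 0.00458, values shared with AT2G07695). ATMG00490 and ATMG00500 share 1 set of values with each other and with AT2G07708, at 5.80, 5.81 and 5.62 in H2O2 seedlings and 6.16, 6.06 and 6.08 in mock seedlings. Their groups were separate, with a change of -0.35 (SE 0.08, limma adjusted p = 0.00765). ATMG01020, which shares its values with no other locus, had 4.11, 4.00 and 4.01 in H2O2 seedlings and 4.22, 4.47 and 4.37 in mock seedlings. The change was -0.31 (limma adjusted p = 0.018), and the call was lost without mock replicate 2, mock replicate 3 or H2O2 replicate 2 (adjusted p = 0.0731, 0.0519 and 0.052). To complete the 8, and chosen after their values were seen, ATMG01210 differed by -0.31 (limma adjusted p = 0.0404) and ATMG01180 by -0.29 (limma adjusted p = 0.0209). ATMG01210 lost its call without mock replicate 1 or 2 or H2O2 replicate 2 or 3, with adjusted p between 0.0563 and 0.137. ATMG01180 lost it without mock replicate 1 or 2 or H2O2 replicate 3, with adjusted p between 0.0652 and 0.0738. Under reference gene centring none of ATMG01280, ATMG00490, ATMG00500, ATMG01020, ATMG01210 and ATMG01180 passed, with changes between -0.23 and -0.12.

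**Figure D3:**
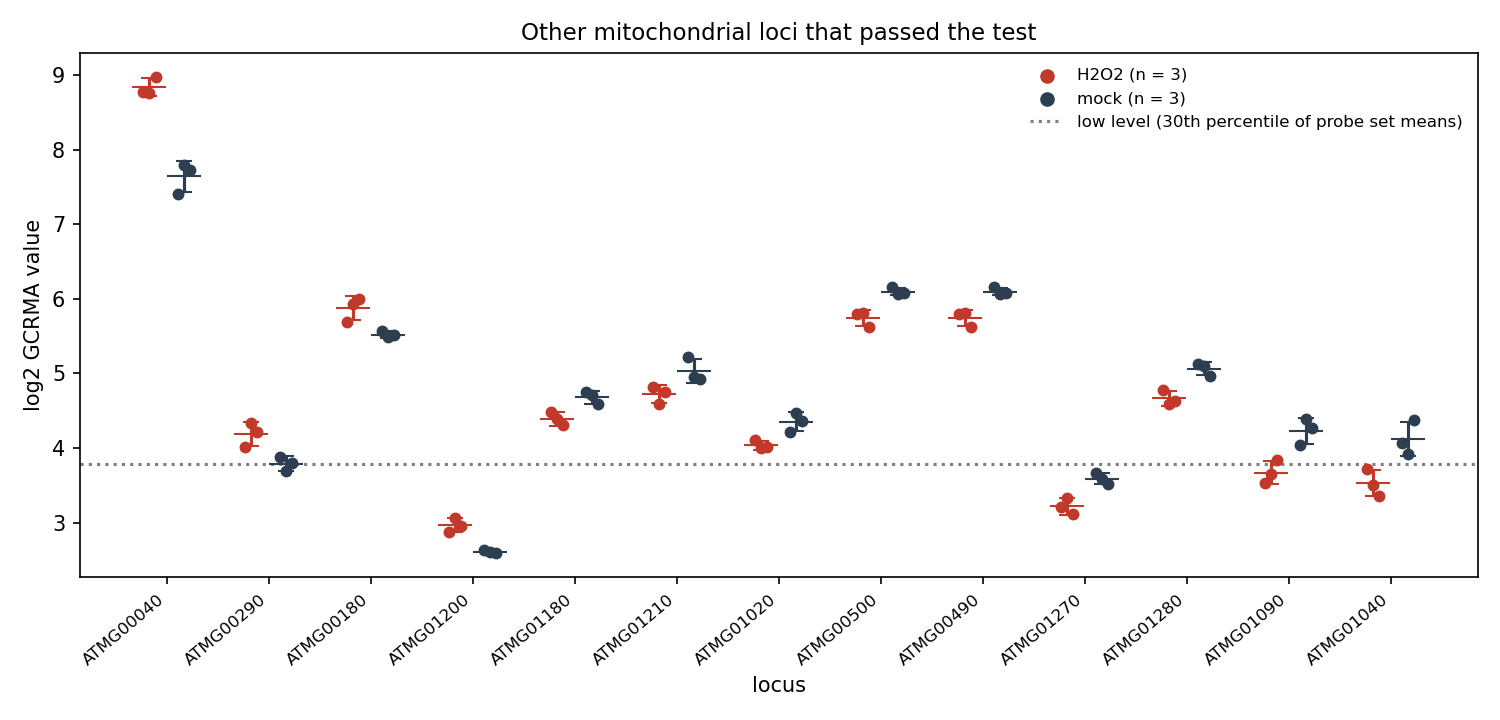
Log2 GCRMA values of the 13 called mitochondrial loci outside the respiratory chain and ATP synthase lists, with H2O2 arrays (red, n = 3) left of mock arrays (dark blue, n = 3), ordered from the largest increase on the left to the largest decrease on the right. Points are arrays, long bars are means, whiskers are SD and the dotted line is the low level of 3.79. ATMG00040 stands apart by size, and the mock arrays lie above the H2O2 arrays for the 9 loci on the right.

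Nuclear genes for subunits of the same complexes were mostly lower or did not pass. Of 60 nuclear loci in the respiratory chain and ATP synthase lists, 4 were higher, 31 lower and 25 did not pass, with a median change of -0.28. All 60 had means at or above the low level. The share called was 58.3%, beside 58.2% of all probe sets at or above that level (23.1% higher and 35.1% lower). Under reference gene centring 7 were higher and 11 lower with a median of -0.11, so that the number of decreases depends on the scaling. The difference between mitochondrial and nuclear loci was not tested as such. The per-array medians of the nuclear loci were -0.30, -0.17 and -0.29 on the H2O2 arrays, against -0.003, 0.02 and -0.02 on the mock arrays.

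For complex I, 0 of 23 nuclear loci were higher and 14 lower, with a median of -0.30, beside 3 higher and 0 lower of 5 mitochondrial loci. GAMMA CAL1 and GAMMA CA3, which belong to the carbonic anhydrase domain of plant complex I, were among the decreases. GAMMA CAL1 had 8.61, 8.65 and 8.42 in H2O2 seedlings, against 9.12, 9.16 and 8.99 in mock seedlings, a change of -0.53 (SE 0.09, limma adjusted p = 0.00135). GAMMA CA3 had 9.11, 9.20 and 9.14 in H2O2 seedlings and 9.61, 9.58 and 9.57 in mock seedlings, a change of -0.44 (SE 0.07, limma adjusted p = 0.0011). Both pairs of groups were separate. Also among the 4 largest decreases of this list, AT3G62790 and AT2G47690 were lower by -0.45 and -0.42 (limma adjusted p = 0.00753 and 0.00489). AT3G62790 lost its call without variance moderation (adjusted p = 0.0542). Under reference gene centring 4 of the 23 were lower.

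Complex II, succinate dehydrogenase, has no subunit in this mitochondrial list, and of its 4 nuclear loci 2 were higher, 1 lower and 1 did not pass. SDH1-1, the flavoprotein subunit, had 9.76, 9.86 and 9.91 in H2O2 seedlings, against 9.48, 9.54 and 9.49 in mock seedlings. The change was 0.34 (SE 0.08, limma adjusted p = 0.00615). SDH4, a membrane anchor subunit, was lower by -0.34 (limma adjusted p = 0.00547) and did not pass under reference gene centring (-0.17). SDH2-1, the iron-sulfur subunit, was higher by 0.23 (limma adjusted p = 0.0391), a call that ended in the fit paired by replicate number (adjusted p = 0.0582) and when any single array was dropped (adjusted p between 0.0504 and 0.131).

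The nuclear list of complex III and cytochrome c held the largest changes of all nuclear lists. It had 2 loci higher and 5 lower of 15, with a median of -0.13, against 4 higher and 3 lower with a median of 0.04 under reference gene centring. AT5G25450 had 10.03, 10.09 and 9.76 in H2O2 seedlings, against 5.26, 5.22 and 5.16 in mock seedlings. The groups were far apart, with a change of 4.75 (SE 0.10), or 26.8-fold (limma adjusted p = 3.41e-09). CYTC-2, a cytochrome c that carries electrons from complex III to complex IV, had 10.38, 10.43 and 10.48 in H2O2 seedlings and 8.47, 8.39 and 8.40 in mock seedlings. It was 4.03-fold higher (change 2.01, SE 0.08, limma adjusted p = 1.11e-07). AT2G01090 and AT2G40765 were lower by -0.61 and -0.49 (limma adjusted p = 0.00142 and 0.00272).

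For complex IV 0 of 8 nuclear loci were higher and 3 lower, with a median of -0.22, and 1 was lower under reference gene centring. AT3G15640 had 9.27, 9.69 and 9.36 in H2O2 seedlings, against 9.96, 10.15 and 10.06 in mock seedlings, a change of -0.62 (SE 0.12, limma adjusted p = 0.0022). The other calls, AT5G57815 at -0.32 and AT3G62400 at -0.29 (limma adjusted p = 0.0327 and 0.043), were both lost under reference gene centring and without any of 5 single arrays. For the ATP synthase 0 of 10 nuclear loci were higher and 8 lower, with a median of -0.31, beside 3 of 3 mitochondrial loci higher. With reference gene centring 3 of the 10 were lower (median -0.14), and with quantile normalization 5 were. AT5G47030 had 9.42, 9.43 and 9.26 in H2O2 seedlings, against 9.91, 9.91 and 9.95 in mock seedlings, a change of -0.55 (SE 0.08, limma adjusted p = 0.000485). AT2G19680 was lower by -0.56 (limma adjusted p = 0.00115) and AT4G29480 by -0.45 (limma adjusted p = 0.00359). ATP5 was lower by -0.37 (limma adjusted p = 0.00556) and did not pass under reference gene centring (adjusted p = 0.0884).

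**Figure D4:**
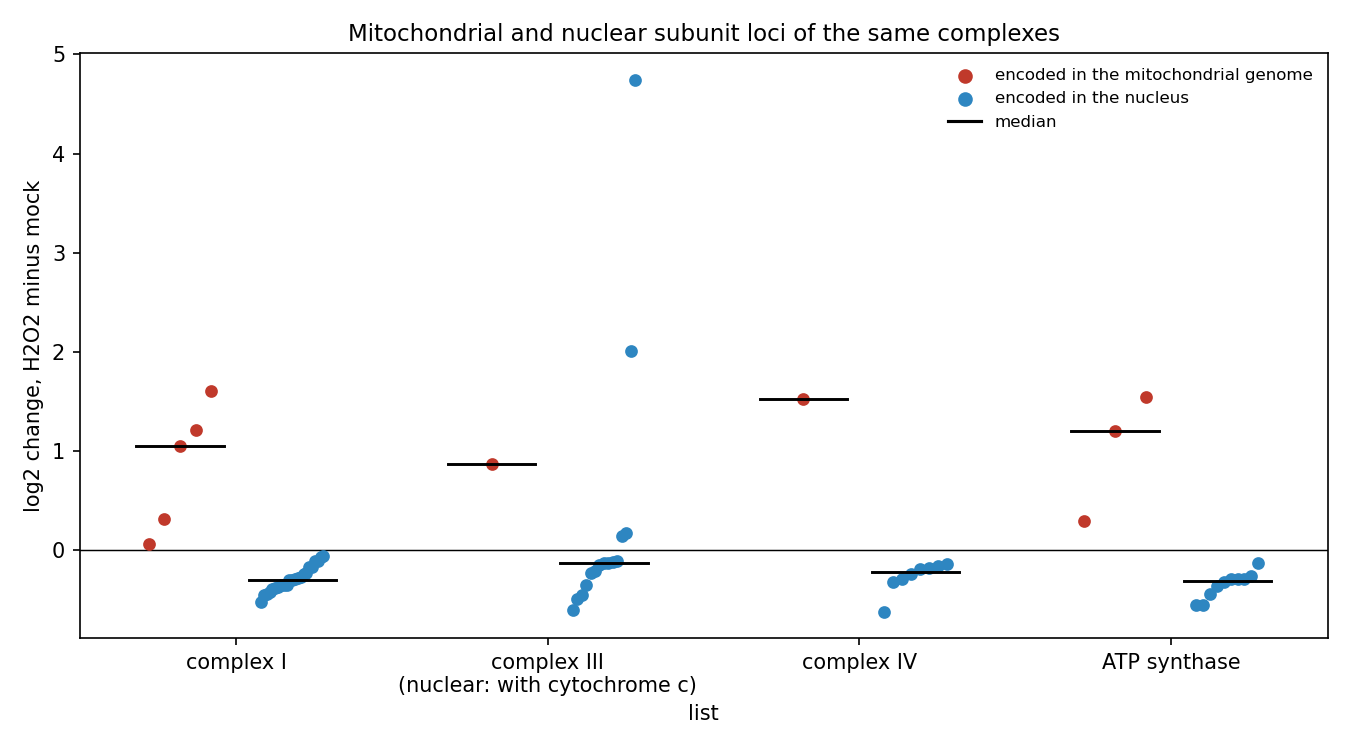
Log2 change (H2O2 minus mock) of single loci in the lists of complexes I, III, IV and the ATP synthase, with loci of the mitochondrial genome (red) left of nuclear loci (blue). Black bars are medians. The mitochondrial medians lie at 1.05, 0.87, 1.52 and 1.20, and the nuclear medians at -0.30, -0.13, -0.22 and -0.31, with AT5G25450 and CYTC-2 as the 2 nuclear loci above 2.

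Nuclear genes for the handling of mitochondrial RNA and DNA were mostly not called. Of 27 gene expression factors 2 were higher, 5 lower and 20 did not pass, with a median of -0.12. Centred on the reference genes 5 were higher and 2 lower, with a median of 0.05. The share called in the main fit was 25.9%, beside 45.0% of all probe sets. Of the 27 factors, 10 had means under the low level. Among all probe sets 14.1% were called under that level and 58.2% at or above it. The part of low signal in the smaller share was not tested. EMB2730, an exoribonuclease of organelles, had 6.89, 6.91 and 6.75 in H2O2 seedlings, against 7.43, 7.51 and 7.51 in mock seedlings. The groups were separate, with a change of -0.64 (SE 0.08, limma adjusted p = 0.000213). MORF3, an RNA editing factor, was lower by -0.44 (SE 0.10, limma adjusted p = 0.0048). AT5G14580 was higher by 0.58 (limma adjusted p = 0.0117), with 5.40, 4.91 and 5.48 in H2O2 seedlings and 4.66, 4.84 and 4.56 in mock seedlings, and lost its call without variance moderation (adjusted p = 0.0961) or when low values were raised (adjusted p = 0.0814). Of 5 loci for mitochondrial DNA maintenance, too few for a share to be compared, 3 did not pass and 2 were lower. These were MSH1 at -0.34 and RECA3 at -0.24 (limma adjusted p = 0.0115 and 0.0344), both genes that limit recombination between repeats of the mitochondrial genome, and neither passed under reference gene centring (-0.17 and -0.07). RECA3 also lost its call without 5 of the 6 single arrays.

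The plastid genome, the other organelle genome of these cells, had 4 loci in the table. ATCG01000 and ATCG01130, which share 1 set of values, had 9.07, 8.91 and 9.26 in H2O2 seedlings, against 9.90, 10.13 and 10.17 in mock seedlings, a change of -0.98 (SE 0.11, limma adjusted p = 0.000116). ATCG00580 had 9.62, 9.69 and 9.59 in H2O2 seedlings and 10.53, 10.59 and 10.61 in mock seedlings, a change of -0.94 (SE 0.08, limma adjusted p = 1.25e-05). In both cases the H2O2 arrays were all below the mock arrays, and the decreases held under the scalings run. ATCG00020, with the values of AT2G07688, had 9.70, 9.63 and 10.38 in H2O2 seedlings and 10.43, 10.02 and 10.31 in mock seedlings. These overlapped through H2O2 replicate 3, and the change of -0.35 (SE 0.19) did not pass (limma adjusted p = 0.177). Without that replicate it was -0.59 and passed (adjusted p = 0.00689).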

How the data were processed

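Per the submitters' processing notes the authors used GCRMA, a method that models probe background from base content, equalises the arrays and combines the probes of a set. The deposited values were read as log2 from their range of 1.55 to 13.2. Its version and the kind of chip are not given in the sources read. Array medians ran from 5.66 to 5.74.

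All 21430 probe sets were tested without a filter by limma 3.58.1 in R 4.3.3 (functions lmFit and eBayes). The contrast was H2O2 minus mock, p-values were adjusted over all probe sets by Benjamini-Hochberg, and the threshold was 0.05. Residual degrees of freedom were 4 and prior ones 4.92. The code was checked on simulated data with far fewer changed probe sets than were called here. That check does not measure the error rate of the calls. Figures were drawn with matplotlib 3.10.9. Alternatives changed the filter, low values, scaling, variance prior, array weights, the replicate block and each replicate in turn.

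Replicate numbers from the labels were checked: deviations from group means correlated at 0.14, 0.18 and 0.16 for same-numbered arrays and below 0 for all others. Deviations within a group sum to 0, so the values below 0 are partly forced by those above it. A paired fit, with the number as a blocking factor, was added.

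Members and lists were chosen with earlier results of these data known. Named were list members, up to 4 called loci per nuclear list by size of change, and the 6 largest calls in each direction among open reading frames. Symbols came from a RefSeq table (TAIR10.1), which gave one to 46 of 92 nuclear list loci. No sequence was used here.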

Additional observations from a re-analysis of the deposited data

How the results depend on the processing

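The alternatives were run on the counts of called members (12 higher, 9 lower, 7 at least 2-fold higher), on the median log2 change of mitochondrial genome members (0.02) and on the nuclear lists (6 higher, 38 lower of 92). Centring on the reference genes gave 23 members higher, 2 lower and a median of 0.19, with 13 nuclear loci higher and 13 lower. Raising low values gave 11 members higher, 6 lower and 6 at least 2-fold higher, with 5 nuclear loci higher and 33 lower. Keeping the 10 members above the 50th percentile left 4 higher, 3 lower, 3 at least 2-fold higher and a median of 0.068. Leaving out members identical to a nuclear locus left 29, with 2 higher, 2 lower, 1 at least 2-fold higher and a median of -0.019. The median was also -0.019 after quantile normalization, -0.0097 when arrays were centred on the median and -0.010 when they were centred on the nuclear median. With the replicate number as a block 15 members were higher and 9 lower, ATMG00210, ATMG00740 and ATMG01260 being added, and among the named loci it ended the calls of SDH2-1 and AT2G07720 alone. Leaving out 1 replicate gave 11 to 15 members higher, 6 to 9 lower, 6 to 7 at least 2-fold higher, medians of -0.00612 to 0.041, and nuclear counts of 4 to 6 higher and 27 to 40 lower. For single named loci 795 values kept their direction and side of the threshold, 93 lost the call and 1 gained it, while ATMG00520, which passed in none, was at 0 with low values raised and at -0.004 without H2O2 replicate 3, and the cause of these changes was not tested. Low signal limits what can be seen of the 46 members under the low level.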

Other observations

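The AT2G07 loci that share no values with a mitochondrial locus numbered 55, of which 2 were higher and 2 lower, with a median change of 0.01, and 41 lay under the low level. Centred on the reference genes 12 were higher and 2 lower (median 0.18), and with arrays centred on the median 0 were higher and 3 lower. The share called in the main fit was 7.27%, beside 45.0% of all probe sets and 14.1% of all probe sets under the low level. PFD1, a prefoldin subunit, had 7.08, 7.13 and 6.85 in H2O2 seedlings, against 7.75, 7.85 and 7.69 in mock seedlings (change -0.74, limma adjusted p = 0.000241). CAS1, the cycloartenol synthase of sterol synthesis, had 9.07, 8.97 and 8.93 in H2O2 seedlings and 9.53, 9.44 and 9.56 in mock seedlings (change -0.52, limma adjusted p = 0.000731). AT2G07110 and AT2G07720 differed by 0.23 and 0.22 (limma adjusted p = 0.028 and 0.0373), both under the low level in both groups and both at 0 with low values raised.

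The reference genes themselves were not level. Of 8, 0 were higher and 3 lower, with a median change of -0.14 and a range of -0.48 to 0.08. The share called was 37.5%, beside 45.0% of all probe sets.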
